A study of Mus musculus with 9 samples.

Results

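The genes described here encode insulin-like growth factor I (Igf1) and 6 insulin-like growth factor binding proteins, Igfbp2 to Igfbp7, in mouse cornea, lens and tendon. They were chosen by name, as every probe set of the expression table that the array's annotation gives to 1 of these 7 genes alone. A probe set is a group of short probes on an Affymetrix array that read 1 transcript. The rule found 6 of the genes among 8252 that the table gives a probe set of their own, through 10 of 12422 probe sets that are not controls. The 1 probe set given to Igfbp5 is shared with another gene in the annotation, so Igfbp5 was not analysed here. All 3 probe sets of Igfbp4, and both of Igf1 and of Igfbp3, are reported. Igfbp2, Igfbp6 and Igfbp7 each have 1.

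Total RNA was profiled on 9 arrays, and the comparisons asked how gene expression in the cornea differs with age and from that in the lens and tendon. Adult cornea (3 arrays), lens (2 arrays) and tendon (2 arrays) came from mice 7 weeks old, and 2 arrays came from cornea at postnatal day 10, called P10 here. Corneas were cut away from the limbus and most of the epithelium was scraped off to enrich the stroma. The tendon was the flexor digitorum longus, a digit flexor of the hind limb. Each array was a separate RNA preparation. For lens and tendon several tissues were pooled before extraction. Strain, sex and any allele or agent are not given in the sources used here. The labels name no treatment that sets the groups apart.

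IGF-I and IGF-II are secreted growth factors that signal through the receptor tyrosine kinase IGF1R, which activates phosphoinositide 3-kinase and AKT. In extracellular fluid they are mostly held by IGF binding proteins, which prolong their life, block access to the receptor or, once cut by a protease, release the ligand near it. IGFs promote fibre differentiation in the lens, matrix synthesis by tendon cells, and growth and survival of corneal epithelial cells and keratocytes, the fibroblast-like cells of the corneal stroma.

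The 250 bases before the transcription start are shown for 4 binding protein genes, because these genes had different orders of level across the 4 groups. The sequences are those of RefSeq on GRCm38.p6, 5′ to 3′ on the gene's strand. RefSeq windows were matched for all 6 genes with probe sets of their own. Capitals mark 3 strings of letters searched on both strands, GGGCGG (the GC box bound by SP1-type factors), TATAAA (the TATA box) and CCAAT. None of the marked strings overlap.
Igfbp2, chr1:72824230-72824479, plus strand, the first of 2 RefSeq starts: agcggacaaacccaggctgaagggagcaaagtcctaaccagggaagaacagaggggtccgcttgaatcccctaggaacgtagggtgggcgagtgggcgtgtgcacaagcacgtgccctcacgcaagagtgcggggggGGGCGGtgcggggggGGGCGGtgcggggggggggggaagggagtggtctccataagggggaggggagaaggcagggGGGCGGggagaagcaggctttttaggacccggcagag
Igfbp4, chr11:99040994-99041243, plus strand: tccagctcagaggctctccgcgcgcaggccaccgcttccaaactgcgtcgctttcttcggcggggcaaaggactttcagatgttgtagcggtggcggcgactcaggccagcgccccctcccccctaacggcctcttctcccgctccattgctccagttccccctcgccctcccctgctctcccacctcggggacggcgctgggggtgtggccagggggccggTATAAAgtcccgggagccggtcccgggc
Igfbp6, chr15:102143936-102144185, plus strand: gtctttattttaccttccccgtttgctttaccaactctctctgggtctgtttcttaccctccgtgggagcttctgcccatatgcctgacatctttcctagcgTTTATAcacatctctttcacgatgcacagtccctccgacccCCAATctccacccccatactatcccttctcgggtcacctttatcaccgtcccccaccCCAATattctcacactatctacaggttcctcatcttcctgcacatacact
Igfbp7, chr5:77408046-77408295, minus strand: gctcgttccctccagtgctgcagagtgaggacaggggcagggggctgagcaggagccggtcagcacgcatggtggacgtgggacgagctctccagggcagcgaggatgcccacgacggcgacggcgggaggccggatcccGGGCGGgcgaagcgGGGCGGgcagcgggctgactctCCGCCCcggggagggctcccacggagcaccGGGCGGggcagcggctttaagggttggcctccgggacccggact

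The Igfbp2 window held 3 GC boxes, which began 113, 98 and 37 bases before the start, and none of the other strings. That of Igfbp7 held 4 GC boxes, which began 110, 96, 74 and 44 bases before the start, the one at 74 on the opposite strand. Igfbp4 had a TATA box that began 28 bases before the start. In the Igfbp6 window 2 CCAAT strings began 107 and 50 bases before the start, and a TATA string lay on the opposite strand at 148. Of 32851 promoter windows of this length, 32.7% held the GC string, 12.4% the TATA string and 33.8% the CCAAT string. The Igfbp6 window had 49.6% G and C, against 67.2% for Igfbp2, 69.2% for Igfbp4 and 74.0% for Igfbp7. The windows of Igfbp3 and of the other Igfbp2 start held none of the strings, and that of Igf1 held 1 CCAAT string on the opposite strand. In the genome Igfbp2 lies next to Igfbp5 on chromosome 1, and Igfbp3 next to Igfbp1 on chromosome 11.

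The values are a linear expression index in arbitrary units, so levels are compared between groups for 1 probe set and never between probe sets. The arrays had medians from 67.6 to 88.0, and each held some values below 0. Arrays of the same group correlated at Pearson r of 0.869 to 0.927 across probe sets in adult cornea and 0.953 to 0.978 in the other groups. Adult cornea replicate 1 stood apart in its 3′ to 5′ probe set ratios, a measure of RNA integrity. Its Gapdh ratio was 2.25 against 0.831 to 1.04 on the others, and its actin ratio was 4.69 against 1.07 to 2.07.

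The tissue labels were set against marker genes, summed over each list with values below 0 counted as 0. The 8 of 11 lens genes that were measured summed to 34410 and 35679 on the lens arrays, to between 4722 and 8576 on the cornea arrays and to at most 585 on tendon. The 4 of 9 measured tendon genes summed to 11218 and 12562 on tendon and to at most 834 elsewhere. All 10 skeletal muscle genes were measured, and they summed to 30030 and 36070 on tendon against 448 to 1028 on the other arrays. Within this list Myh4 (72.0 and 61.4 on tendon, 114 and 185 on lens) and Myh2 (22.6 and 19.6 on tendon, 108 and 175 on lens) were lower on tendon than on lens. The 10 corneal epithelial genes summed to between 16740 and 20447 on the scraped corneas, 2337 and 2844 on lens and 683 and 1444 on tendon. The 9 stromal genes summed to between 10514 and 15176 on cornea, 9614 and 10535 on tendon and 2340 and 3671 on lens. The cornea sums matched or exceeded those of tendon only through Aldh3a1, at 5874 to 7563 on cornea and below 0 on both tendon arrays. Dcn, Ogn, Pdgfra and Thy1 read higher on both tendon arrays than on any cornea array, and Ptgds lower. Kera, which encodes the keratocyte proteoglycan keratocan, was at 311, 183 and 144 in adult cornea, 441 and 345 in P10 cornea, 213 and 236 in tendon and 15.8 and 7.69 in lens, so it set the lens apart but not tendon from adult cornea.

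**Figure D1:**
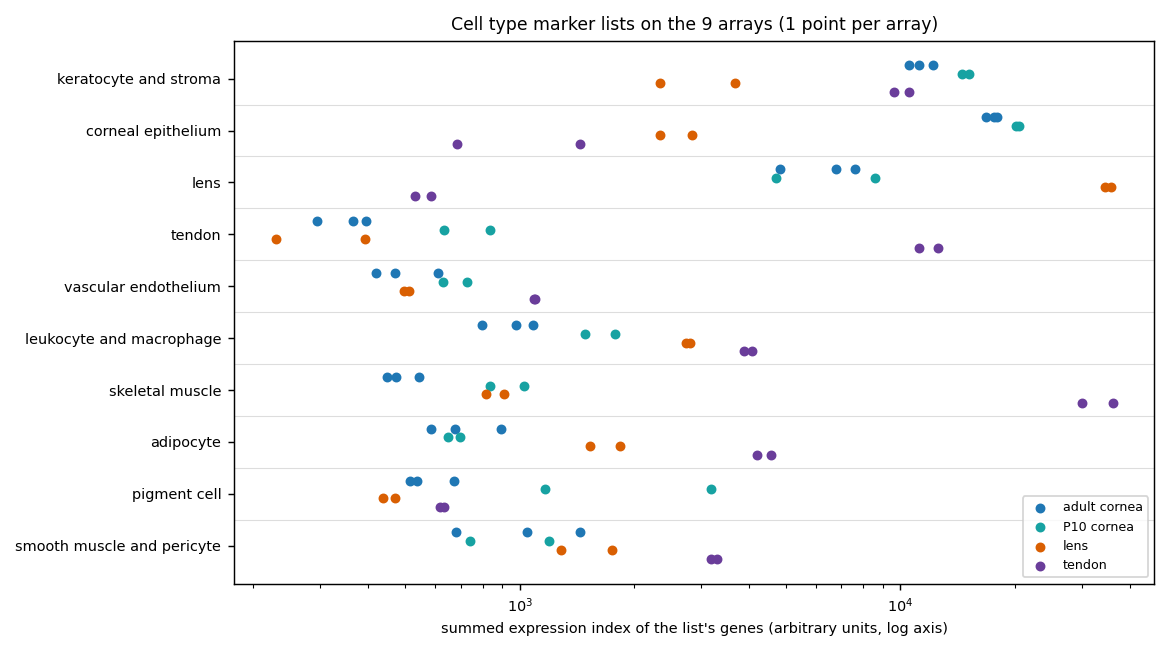
Summed expression index of each marker list (arbitrary units, log axis) on the 9 arrays, 1 point per array, grouped as adult cornea, P10 cornea, lens and tendon. The tendon arrays carry the highest skeletal muscle sums (30030 and 36070), the cornea arrays the highest epithelial sums, and the lens arrays the highest lens sums.

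In each of 6 pairwise comparisons limma was fitted to log2(index + 16) over all 9 arrays. A probe set was called at an adjusted p under 0.05 (Benjamini-Hochberg over 8154 tested probe sets). Differences are given as log2 values with their SE, or as folds on this scale, which understate the change of genes with low values. Only probe sets at or above the median of the array on at least 2 arrays entered the fit, which 9 of the 10 did. Igfbp2 passed through the 5 cornea arrays alone, and 1 Igf1 probe set through the tendon arrays alone. Igfbp6 passed through the 2 tendon arrays and 1 lens array, and both Igfbp3 probe sets through lens and tendon arrays alone. For such genes a difference follows in part from passing, and the counts of called genes below are a description. The comparisons share arrays and are not independent of each other. In whole tissue, fewer cells of a type and less RNA per cell cannot be told apart.

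Each gene was counted through its probe set with the highest mean. Between adult and P10 cornea 1 of 6 genes was called, lower in the adult, where 4.57% of all tested probe sets were called, 0.699% higher and 3.88% lower. Between adult cornea and lens 5 of 6 were called, against 51.2% of all. Of these 2 were higher and 3 lower in cornea, against 27.2% and 24.0%. Between adult cornea and tendon all 6 were called, against 35.0% of all. Here 1 was higher and 5 were lower in cornea, against 16.1% and 18.9%. P10 cornea against lens gave 4 called genes where the background was 51.0%, with 2 in each direction against 31.6% higher and 19.4% lower. P10 cornea against tendon gave 3 where it was 26.7%, with 1 higher and 2 lower against 15.7% and 11.0%. Lens against tendon gave 4 where it was 49.0%, with 1 higher and 3 lower in lens against 22.6% and 26.4%. In the comparisons with lens the background was itself high, from 49.0% to 51.2%, so 4 or 5 called genes of 6 say little about these genes. Of all calls between the ages 15.3% were higher in the adult, and 26.7% under either other array scaling tried. The median log2 difference of the 6 genes was -0.69 between adult and P10 cornea, -0.70 for adult cornea minus lens and -1.63 for adult cornea minus tendon. Over all tested probe sets the same medians were -0.13, 0.08 and 0.01. For P10 cornea the medians were -0.14 minus lens and -0.82 minus tendon, against 0.25 and 0.13 over all, and for lens minus tendon -0.51 against -0.07.

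**Figure D2:**
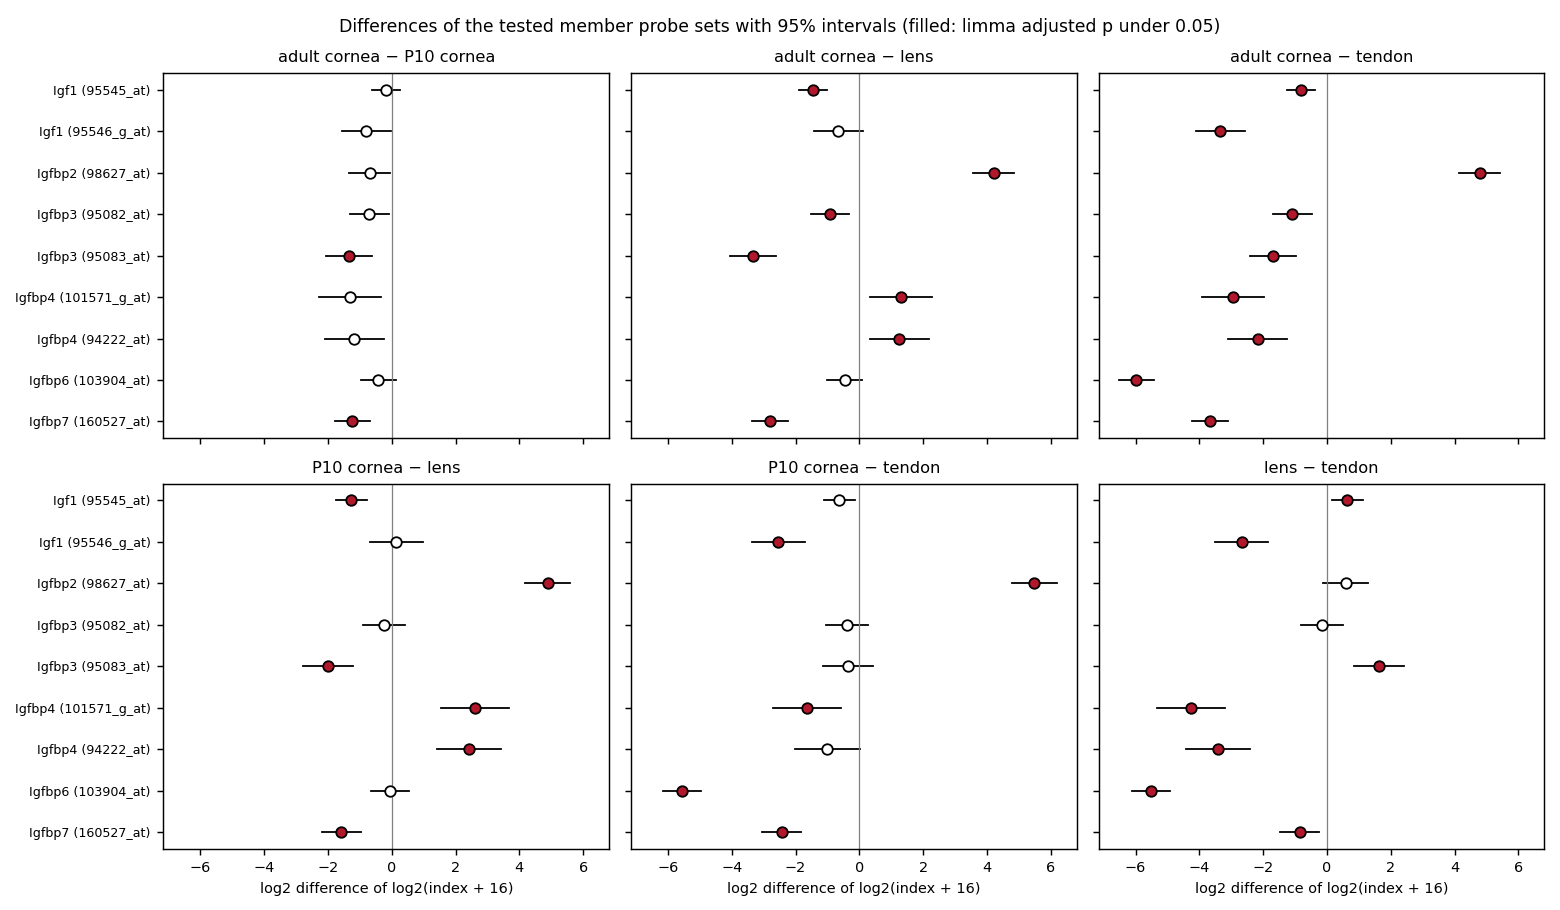
Log2 differences on the log2(index + 16) scale between pairs of groups, with 95% intervals, for the 9 tested probe sets; filled points passed an adjusted p of 0.05. Igfbp2 lies far above 0 and Igfbp6 far below 0 wherever cornea is compared with tendon, by 4.79 and -5.98 in the adult.

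Igf1, the ligand, read highest in lens through its probe set with the higher mean. The index was 456 and 517 in lens, 292 and 321 in tendon, 180 and 203 in P10 cornea, and 152, 148 and 206 in adult cornea. Both lens arrays lay above both tendon arrays, those lay above all corneas, and the 2 ages of cornea overlapped. Lens exceeded adult cornea 2.74-fold (adult minus lens -1.46 ± 0.20 on the log2 scale, adjusted p = 0.000187) and P10 cornea 2.42-fold (adjusted p = 0.000934). Tendon exceeded adult cornea 1.76-fold (adjusted p = 0.00942), a call lost without tendon replicate 1 (0.0548) or 2 (0.0912). Lens against tendon was 1.56-fold with an adjusted p of 0.0334, a call lost with quantile normalization (0.0912) and without any 1 of the lens, tendon or P10 arrays (0.0520 to 0.169). Tendon against P10 cornea missed the threshold (P10 minus tendon -0.63, adjusted p = 0.0559) and passed it in 6 of 17 alternatives. Adult minus P10 cornea was -0.18 (95% interval -0.63 to 0.26, adjusted p = 0.765).

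The other Igf1 probe set gave another order. Its index was 265 and 305 in tendon, 28.5 and 33.4 in lens, 25.8 and 48.0 in P10 cornea, and 5.82, 8.13 and 33.5 in adult cornea. Tendon was above all other arrays and lens overlapped both corneas. The fold of tendon was 10.1 over adult cornea (adjusted p = 3.81e-05), 5.81 over P10 cornea (adjusted p = 0.000759) and 6.41 over lens (adjusted p = 0.000216). The probe sets thus disagree on lens against tendon, and over the 9 arrays their log2 values had a Pearson r of 0.41. Both placed tendon above adult cornea. The 11 leukocyte and macrophage genes summed to 2741 and 2796 on lens, 3874 and 4077 on tendon and 799 to 1785 on the corneas. On lens most of the sum came from C1qb (1378 and 1571) and C1qa (750 and 662). Lyz2 was below 0 on both lens arrays, and Fcer1g, Cd14 and Csf1r were lower there than in tendon. The part of these cells in the Igf1 differences was not tested.

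Igfbp2 was high in cornea of both ages and low in lens and tendon. IGFBP2 binds both IGFs and carries an integrin-binding motif. Its index was 1314, 1269 and 946 in adult cornea and 1992 and 1777 in P10 cornea, against 74.9 and 28.8 in lens and 25.4 and 27.7 in tendon. Every cornea array was above every lens and tendon array. Adult cornea exceeded lens 18.5-fold (log2 difference 4.21 ± 0.29, adjusted p = 1.94e-06) and tendon 27.7-fold (4.79 ± 0.29, adjusted p = 8.56e-07). For P10 cornea the folds were 29.7 over lens (adjusted p = 2.02e-06) and 44.6 over tendon (adjusted p = 1.01e-06). The 2 ages did not overlap, with means of 1176 ± 201 (SD, n = 3) and 1884 ± 152 (SD, n = 2). The difference of -0.69 ± 0.29 did not pass (adjusted p = 0.275), though its unadjusted 95% interval ran from -1.33 to -0.04. The difference of lens minus tendon was not called (0.58, adjusted p = 0.152), but was without lens replicate 2 (0.0105). The epithelial sums were higher in cornea too, as given above, and their part in the Igfbp2 difference was not tested.

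Igfbp6 was high in tendon and low in the other 3 groups. IGFBP6 is the binding protein that prefers IGF-II. The tendon arrays read 3688 and 3823, the lens arrays 81.9 and 53.3, the P10 corneas 63.4 and 64.01 and the adult corneas 31.3, 41.8 and 62.2. Tendon stood above all other arrays, lens overlapped both corneas, and the adult corneas lay just below the P10 corneas. The fold of tendon was 63.1 over adult cornea (adult minus tendon -5.98 ± 0.24, adjusted p = 9.00e-08), 47.3 over P10 cornea (adjusted p = 3.41e-07) and 45.8 over lens (adjusted p = 1.88e-07). Among cornea and lens no difference was called, with adjusted p of 0.477 between the ages, 0.138 for adult cornea against lens and 0.894 for P10 cornea against lens. The second of these passed without adult cornea replicate 3 (0.0281). The tendon arrays also carried the skeletal muscle sums of 30030 and 36070, and the part of muscle RNA in the Igfbp6 difference was not tested. Adipoq, the adipocyte hormone gene, read 1162 and 804 on the same arrays and 17.4 to 35.0 on the others, and 6 of 8 adipocyte genes summed to 4209 and 4561 there against 585 to 1836 elsewhere. Cidec, Fabp4, Retn and Pparg were also highest on the tendon arrays. Lep was not, at 1330 and 1620 on lens, 1181 and 814 on tendon and 378 to 650 on cornea, and it made up most of the lens sums.

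Igfbp7 differed between every pair of groups, from lowest in adult cornea to highest in tendon. IGFBP7 binds IGFs weakly, also binds insulin, and is found in vascular basement membranes. Its index was 147, 155 and 119 in adult cornea, 270 and 450 in P10 cornea, 1286 and 896 in lens, and 1901 and 2019 in tendon. No group overlapped its neighbour. Adult cornea was below lens by a log2 difference of -2.81 (adjusted p = 1.03e-05) and 12.7-fold below tendon (-3.67, adjusted p = 2.12e-06). P10 cornea was below lens 2.98-fold (adjusted p = 0.00103) and below tendon 5.41-fold (adjusted p = 0.000122). Lens was below tendon 1.81-fold (adjusted p = 0.0251), a call lost with quantile normalization (0.130) and without lens replicate 2 (0.161), tendon replicate 1 (0.0887) or tendon replicate 2 (0.118).

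Between the ages Igfbp7 was 2.35-fold lower in adult than in P10 cornea, with means of 140 ± 18.7 (SD, n = 3) and 360 ± 127 (SD, n = 2), a log2 difference of -1.23 ± 0.25 and an adjusted p of 0.0226. The call was lost in 6 of 17 alternatives, among them with only the 2 ages in the fit (0.0805) and without adult cornea replicate 1 (0.0607), P10 cornea replicate 2 (0.267) or either tendon array (0.0513 and 0.0511). P10 cornea replicate 2 held the higher Igfbp7 value and also the higher sums of vascular, smooth muscle and pigment cell genes. Its lens sum (8576 against 4722) and its skeletal muscle, stromal and epithelial sums were higher too. The tendon, leukocyte and adipocyte sums were lower than on replicate 1. For the 8 of 9 measured vascular endothelial genes the sums were 628 and 728 in P10 cornea and 420 to 612 in adult cornea. Cdh5, the endothelial cadherin gene, read 38.2 and 54.4 in P10 cornea and between -6.02 and 7.37 in adult cornea. Tie1, Vwf, Flt1 and Emcn were also higher in P10 cornea without overlap, and Kdr and Tek overlapped. Pecam1 went the other way, at -6.27 and -25.7 in P10 cornea and 22.6 to 101 in adult cornea. The sums of the 6 smooth muscle and pericyte genes were 739 and 1193 in P10 cornea and overlapped the adult range of 682 to 1438. Cnn1 made up most of the adult sums, at 578, 1265 and 860, and read 315 and 383 in P10 cornea. Acta2 (195 and 372 in P10 cornea, 8.60 to 33.9 in adult), Myh11 and Tagln were higher in P10 cornea without overlap. Rgs5 and Des overlapped. For 4 of 5 pigment cell genes they were 1169 and 3189 against 517 to 671. The part of these cell types in the Igfbp7 difference was not tested. In tendon, where Igfbp7 was highest, the vascular sums were 1093 and 1100 and Cdh5 read 110 and 127, and in lens, next in Igfbp7, they were 496 and 513 with Cdh5 below 0 on both arrays. Pecam1 was below 0 on all lens and tendon arrays, and Kdr in tendon (177 and 167) lay within the adult cornea range (104 to 293). Tie1 was highest in lens, at 65.1 and 54.5, against 44.1 and 49.3 in tendon and 4.53 to 26.5 in the corneas. Tek, Vwf, Flt1 and Emcn were lower in lens than in tendon.

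**Figure D3:**
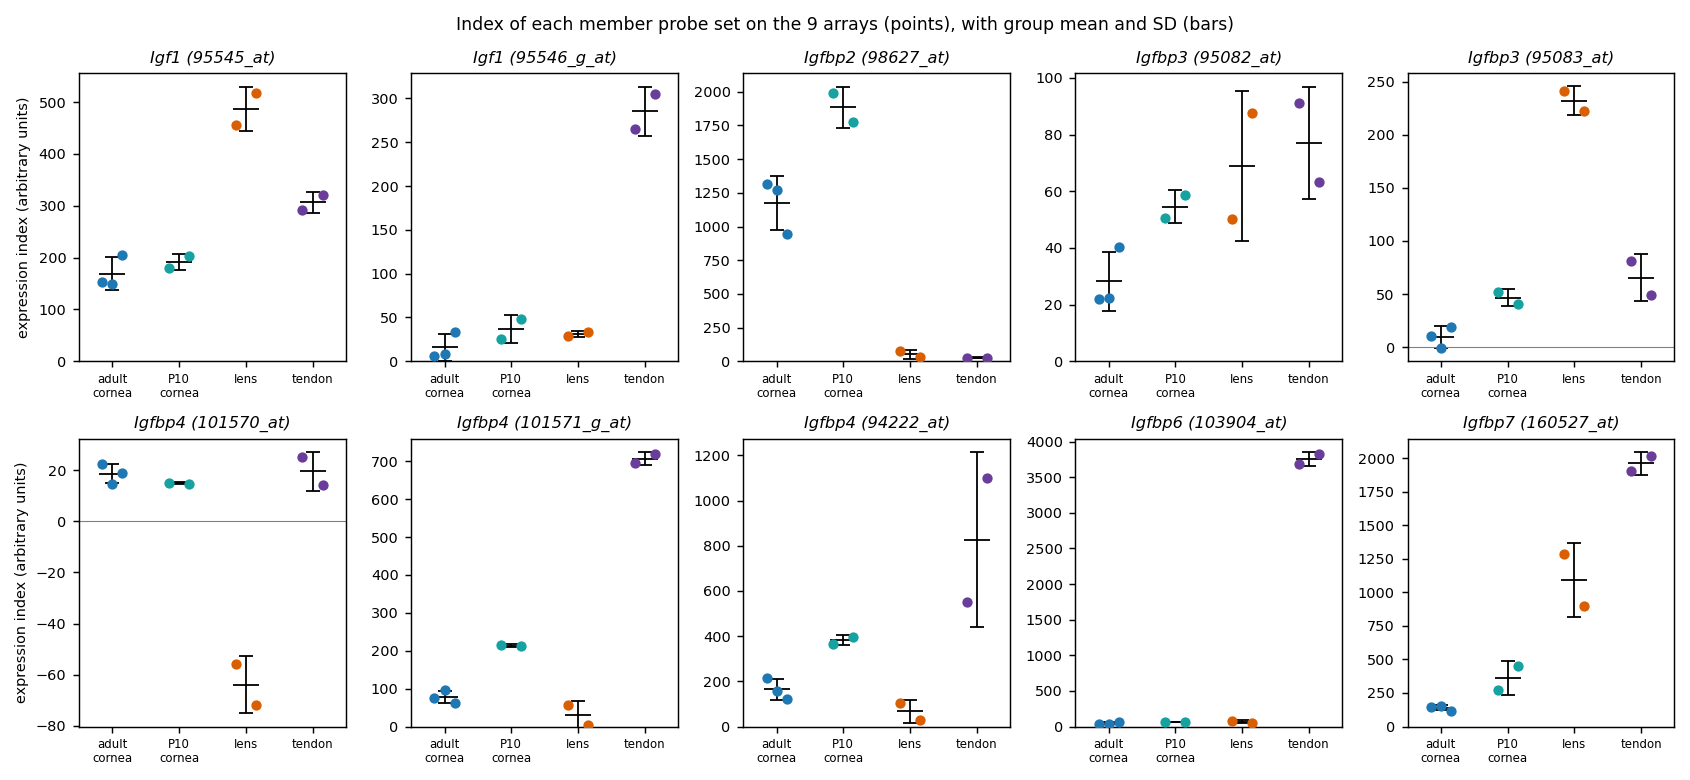
Expression index (arbitrary units) of the 10 probe sets on the 9 arrays, with points for arrays and bars for the group mean and SD. Igfbp2 is high on the 5 cornea arrays (946 to 1992), Igfbp6 on the 2 tendon arrays (3688 and 3823), and Igfbp7 climbs from adult cornea to tendon.

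Igfbp4 was highest in tendon and lowest in lens. IGFBP4 mainly blocks IGF action and releases its ligand when cut by the protease PAPP-A. Through its probe set with the highest mean the index was 553 and 1101 in tendon, 367 and 398 in P10 cornea, 216, 155 and 123 in adult cornea, and 104 and 30.1 in lens. The 4 groups did not overlap, and the 2 tendon arrays differed by more than the corneas did. Tendon exceeded lens 10.7-fold (adjusted p = 0.000141) and adult cornea 4.51-fold (adjusted p = 0.00232). P10 cornea exceeded lens 5.37-fold (adjusted p = 0.00157). Adult cornea exceeded lens 2.39-fold (log2 difference 1.254 ± 0.41, adjusted p = 0.0277), a call lost without lens replicate 2 (0.307), adult cornea replicate 1 (0.0867) or adult cornea replicate 2 (0.0503). Neither adult against P10 cornea (-1.17 ± 0.41, adjusted p = 0.177) nor P10 cornea against tendon (-1.001 ± 0.45, adjusted p = 0.130) passed, though the latter did with only those groups in the fit (0.0414).

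A second Igfbp4 probe set gave the same order. It read 695 and 719 in tendon, 216 and 212 in P10 cornea, 76.4, 95.5 and 63.3 in adult cornea, and 57.2 and 3.39 in lens, and again no groups overlapped. Tendon exceeded lens 19.2-fold (adjusted p = 4.58e-05), adult cornea 7.73-fold (adjusted p = 0.000481) and P10 cornea 3.14-fold (adjusted p = 0.0285). The last of these was lost with a pseudocount of 1 (0.210) and without any 1 of the P10 or tendon arrays (0.109 to 0.123). P10 cornea exceeded lens 6.10-fold (adjusted p = 0.00143). Adult cornea against lens passed at 0.0292 and was lost without lens replicate 2 (0.282) or adult cornea replicate 1 (0.0618) or 2 (0.0735), or with only the arrays of both groups in the fit (0.0643). The age difference of -1.30 did not pass (adjusted p = 0.155), but did without lens replicate 1 (0.00989) or 2 (0.00971), with only the 2 ages in the fit (0.0366) and with a pseudocount of 64 (0.0311). The remaining Igfbp4 probe set read 14.1 to 25.0 on the cornea and tendon arrays and below 0 on both lens arrays, and was not tested. The Pearson r of the 2 tested probe sets over the 9 arrays was 0.97.

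Igfbp3 had low values, and its 2 probe sets ordered lens and tendon differently. IGFBP3 is the main carrier of IGFs in serum, in a complex with the acid-labile subunit encoded by Igfals. The probe set with the higher mean read 21.9, 22.5 and 40.3 in adult cornea, 50.4 and 58.8 in P10 cornea, 50.1 and 87.5 in lens, and 91.1 and 63.2 in tendon. Adult cornea lay below all other arrays, and the other groups overlapped with the exception of P10 cornea and tendon. Adult cornea was 1.90-fold below lens (adjusted p = 0.0160, and 0.155 without lens replicate 2) and 2.12-fold below tendon (adjusted p = 0.0107, and 0.118 without tendon replicate 1). No other pair passed, with -0.70 and an adjusted p of 0.227 between the ages.

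In the second Igfbp3 probe set lens stood out. The index was 242 and 223 in lens, 81.3 and 49.5 in tendon, 52.1 and 40.6 in P10 cornea, and 10.5, -1.01 and 19.2 in adult cornea. Lens lay above all other arrays, adult cornea below them, and P10 cornea overlapped tendon. The adult cornea values lie near 0, so its differences are given on the log2 scale and depend on the pseudocount. Adult cornea minus lens was -3.33 (adjusted p = 1.67e-05), and ran from -5.24 to -2.01 over the alternatives. Lens exceeded P10 cornea 3.99-fold (adjusted p = 0.00107) and tendon 3.11-fold (adjusted p = 0.00319). The last 2 were lost with a pseudocount of 1 (0.126 and 0.215). Adult cornea minus tendon was -1.70 (adjusted p = 0.00219), and ran from -3.39 to -0.81. The age difference of -1.34 ± 0.32 passed at an adjusted p of 0.0447 and was lost in 13 of the 16 alternatives that tested it (0.0521 to 0.338). Over the 9 arrays the log2 values of the 2 probe sets had a Pearson r of 0.76.

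Igfbp1, which lies beside Igfbp3 and encodes a binding protein made mainly by liver and decidua, was not called in any comparison. Its tested probe set read 78.2 and 90.9 in tendon and 44.5 to 68.7 on the other arrays. The other Igfbp1 probe set read 28.5 and 25.4 in tendon and 18.3 to 37.8 on the other arrays, and was not tested.

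Across the members the log2 values of Igfbp2 and Igfbp7 had a Pearson r of -0.88 over the 9 arrays, and Igfbp6 and the second Igf1 probe set one of 0.96. These describe 9 arrays of 4 groups and carry mostly the differences between tissues. The genes whose pattern was most like that of Igfbp2 were Sppl3 (r = 0.993), Dsc2 (0.993) and Hspa1b (0.991), over the same arrays. For Igfbp6 they were Tpm3 (0.996), Tnnt3 (0.996) and Actn3 (0.996), which encode proteins of the muscle sarcomere or thin filament, and Tnnt3 and Actn3 are on the skeletal muscle list above. For Igfbp7 they were Nnat (0.994), Spsb1 (0.991) and Dmd (0.987), and for Igfbp4 Sdhd (0.986), Nfib (0.983) and Calu (0.983). Igf1 was nearest Creb3l1, Myl4 and Mrps18a (each 0.981), and Igfbp3 nearest Ctla4 (0.948), Sult2a2 (0.944) and Sfxn2 (0.939).

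Of 47 other genes of the pathway, 37 had a probe set of their own and 26 were tested. Between adult and P10 cornea 4 were lower in the adult (Igf2, Ins2, Htra1 and Pik3r1) and 0 higher. Adult cornea against lens gave 6 higher and 5 lower, and against tendon 1 higher and 8 lower. P10 cornea gave 9 higher and 2 lower than lens, and 2 higher and 3 lower than tendon, and lens gave 1 higher and 8 lower than tendon. Over all tested probe sets the shares called in these 6 comparisons were 4.57%, 51.2%, 35.0%, 51.0%, 26.7% and 49.0%. Counted over both directions, all but the first are thus near or below the background for 26 genes. The split by direction was less even than the background in some. For adult cornea against tendon 16.1% of all were higher and 18.9% lower, for P10 cornea against lens 31.6% and 19.4%, and for lens against tendon 22.6% and 26.4%. The median log2 differences of the 26 genes were -0.24, 0.05, -0.27, 0.42, -0.05 and -0.31. The 15 genes called at least once include the ligand Igf2, the receptor Igf1r, the protease Htra1 and 3 genes of the CCN family, and 11 were not called.

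Igf2, the other ligand, was highest in P10 cornea through its tested probe set, whose index was 989 and 1217 in P10 cornea, 220 and 209 in tendon, 101, 151 and 137 in adult cornea, and 46.9 and 20.9 in lens. Lens was lowest, 2.98-fold below adult cornea (adjusted p = 0.000642) and 4.78-fold below tendon (adjusted p = 0.000101). P10 cornea exceeded tendon 4.83-fold (adjusted p = 0.000251). The other Igf2 probe set read 9.59 and 14.5 in P10 cornea and 10.1 to 25.4 elsewhere, and was not tested. Ins2, an insulin gene, was called through 1 probe set (574 ± 60.1 in tendon, 237 ± 86.6 in P10 cornea, SD, n = 2 each), while its other probe set read 3.82 to 27.9 on all arrays and was not tested.

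Igf1r, the signalling receptor, was highest in cornea. It read 342, 326 and 266 in adult cornea, 608 and 592 in P10 cornea, 234 and 119 in lens, and 91.6 and 128 in tendon. The corneas lay above all lens and tendon arrays, and lens and tendon overlapped. P10 cornea exceeded lens 3.35-fold (adjusted p = 0.000895) and tendon 4.95-fold (adjusted p = 0.000303), and adult cornea exceeded tendon 2.62-fold (adjusted p = 0.00271). Adult cornea against lens passed at 0.0275 but not without lens replicate 2 (0.265) or adult cornea replicate 1 (0.0759) or 2 (0.0550), or with only those groups in the fit (0.0659). The age difference of -0.92 ± 0.27 did not pass (adjusted p = 0.100) although the ages did not overlap, and it did without lens replicate 1 or 2 (0.0412 each). Igf2r, which clears IGF-II, was not called in any pair as fitted to all arrays, with means of 87.2 ± 22.1 (SD, n = 3) in adult and 156 ± 11.9 (SD, n = 2) in P10 cornea, 107 ± 2.52 in lens and 104 ± 15.6 in tendon (SD, n = 2 each). It was called between the ages without adult cornea replicate 1 (0.0468), and between P10 cornea and tendon with only those groups in the fit (0.0355). The insulin receptor gene Insr and the adaptor Irs1 were measured but not tested, as their values were low.

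Htra1, a secreted protease that cuts IGF binding proteins, read 197, 211 and 163 in adult cornea and 582 to 977 in all other arrays. P10 cornea, lens and tendon exceeded adult cornea 3.03-fold (adjusted p = 0.00423), 3.75-fold (adjusted p = 8.60e-05) and 3.03-fold (adjusted p = 0.000432). The age call was lost without P10 cornea replicate 1 (0.0580) or 2 (0.0515). Igfals was higher in lens, at 104 ± 14.9 (SD, n = 2), than in adult cornea, at 63.96 ± 8.43 (SD, n = 3), with an adjusted p of 0.0255 that rose to 0.0691 or more in 3 alternatives. The other Igfals probe set read 11.5 and 11.1 in lens, 2.42 to 12.9 in adult cornea and 19.9 and 21.0 in tendon, and was not tested. The CCN genes encode matricellular proteins with an IGF-binding-protein-like domain. Ccn2 averaged 692 ± 102 in tendon (SD, n = 2) and 25.6 ± 5.66 in adult cornea (SD, n = 3), 17.1-fold apart (adjusted p = 1.84e-06). It was also higher in tendon than in P10 cornea (9.49-fold, adjusted p = 3.06e-05) and lens (8.81-fold, adjusted p = 1.55e-05). Ccn1 was lowest in lens, at 7.45 and 3.61, and highest in tendon, at 92.5 and 109.

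Downstream, Pik3r1, a regulatory subunit of phosphoinositide 3-kinase, was 2.50-fold lower in adult than in P10 cornea (24.5 ± 3.63, SD, n = 3, against 85.1 ± 4.47, SD, n = 2, adjusted p = 0.00490), a call lost without P10 cornea replicate 1 (0.0588) or 2 (0.0812). Akt2 was highest in lens, at 463 ± 14.97, against 309 ± 6.85 in tendon and 219 ± 16.2 in P10 cornea (SD, n = 2 each) and 166 ± 8.50 in adult cornea (SD, n = 3), but its lens minus tendon call (adjusted p = 0.0294) was lost in 7 alternatives (0.0549 to 0.140). The difference of adult cornea minus lens was -1.39 on the log2 scale (adjusted p = 8.31e-05). Pik3ca, the catalytic subunit gene, was lower in lens (61.5 ± 0.696, SD, n = 2) than in adult cornea (122 ± 25.9, SD, n = 3, adjusted p = 0.00700) through its tested probe set. The other Pik3ca probe set overlapped, at 46.3 and 30.5 in lens and 31.6 to 46.4 in adult cornea, and was not tested. Foxo3, a transcription factor held in the cytoplasm by AKT, averaged 235 ± 54.2 in adult cornea (SD, n = 3) and 84.5 ± 44.0 in lens (SD, n = 2), with an adjusted p of 0.00275.

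**Figure D4:**
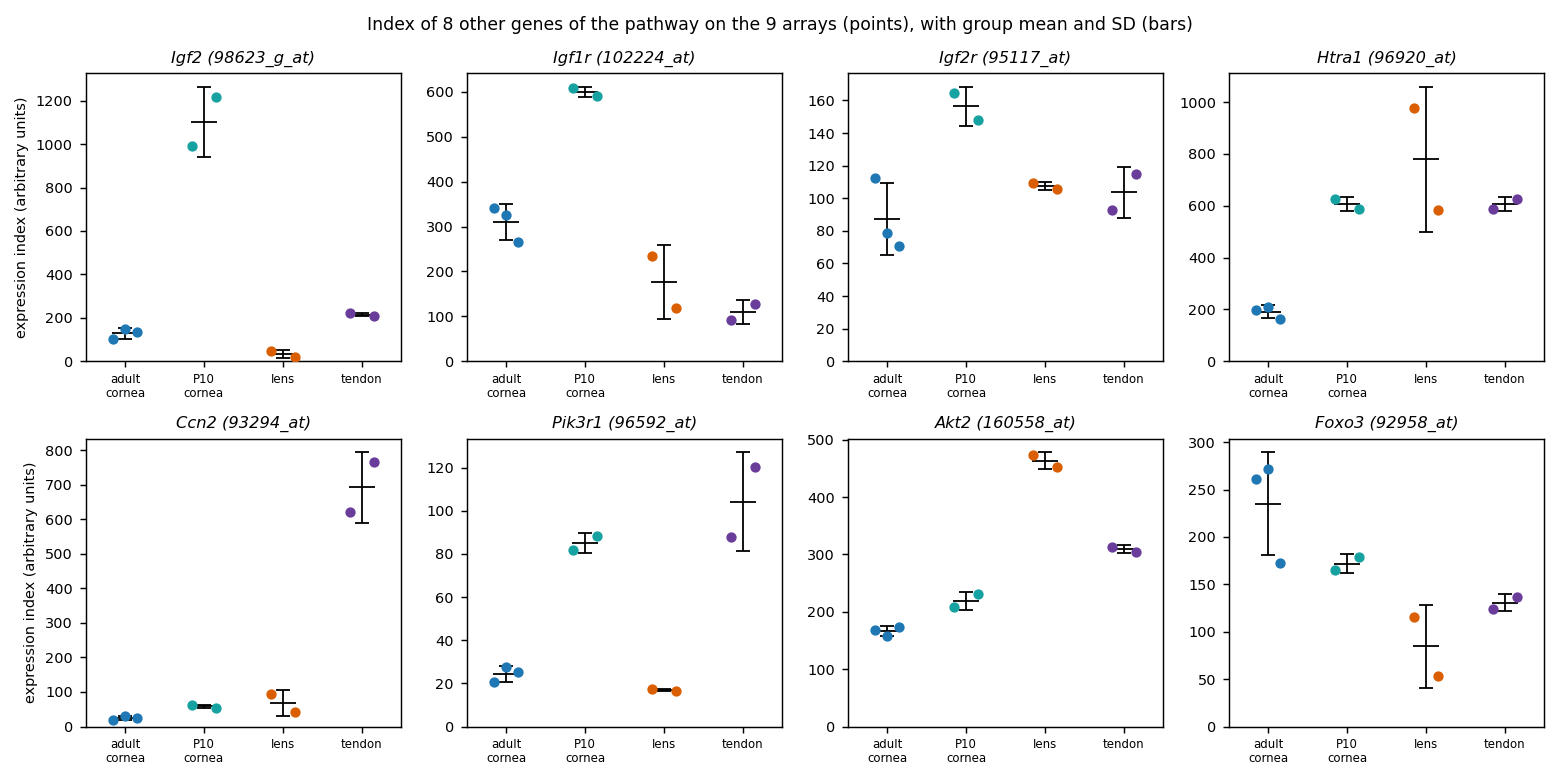
Expression index (arbitrary units) of 8 other genes of the pathway on the 9 arrays, with points for arrays and bars for the group mean and SD. Igf2 and Igf1r are highest on the P10 cornea arrays, Ccn2 on the tendon arrays and Akt2 on the lens arrays.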

How the data were processed

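Total RNA was extracted, the label was biotin, and the labelled material was hybridised to 9 Affymetrix arrays. The deposited intensity values are a linear index for each probe set. The design text says that Microarray Suite 5.0 gave the authors' detection calls and dChip their invariant-set normalization and a model-based index, whereas the submitters' processing notes name MAS5. Neither source says which of these made the table. The values were kept as deposited, since the arrays' trimmed means (percentiles 2 to 98) lay within a ratio of 1.17, under a limit of 1.25.

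Of 12488 probe sets 66 were controls, and of the 12422 others 10833 carry 1 gene symbol, 396 several and 1193 none. Values at or below 0 were set to 0, 16 was added and log2 was taken. Probe sets at or above the array median on at least 2 of 9 arrays were tested. Group means over all 9 arrays were estimated in limma 3.58.1 (R 4.3.3, eBayes with trend, 5 residual and 4.93 prior degrees of freedom), so groups of 2 borrow their spread from the rest. P-values are two-sided, with Benjamini-Hochberg adjustment for each comparison. The number of arrays limits the precision.

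The probe set of highest mean stood for a gene. Named genes are all members, pathway genes called at least once or of set interest, and the 3 genes with the highest Pearson r to each member. Members and lists were chosen with earlier results of these data known. Same-numbered replicates of different groups did not deviate together (r from -0.36 to 0.20 over 12 pairs), so no block was used. Alternatives covered the pseudocount (1 and 64), filter, array scaling, samples in the fit, replicate block, each array left out, and the authors' criteria. Promoter windows are from RefSeq.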

Additional observations from a re-analysis of the deposited data

How the results depend on the processing

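Of 54 tests of member probe sets, 36 were called, and 24 of these held in each of 17 alternatives that tested them. The methods' t-test, given below, is not among the 17. Of the 18 not called, 7 were called in some, and none reversed.
Leaving out each array in turn gave 0 to 1 member genes and 84 to 426 probe sets for adult against P10 cornea, where 1 and 373 were called, 3 to 6 and 3099 to 4449 for adult cornea against lens, and 4 to 6 and 1667 to 3210 for adult cornea against tendon. For P10 cornea it gave 4 and 2777 to 4521 against lens and 3 to 4 and 1062 to 2603 against tendon, and for lens against tendon 2 to 4 and 2854 to 4383.
With the methods' t-test (at least 2-fold, a mean difference of at least 100 and p under 0.05) the same 6 comparisons gave 2, 3, 4, 2, 3 and 1 member genes and 223, 1907, 1427, 1808, 1235 and 1994 probe sets. After Benjamini-Hochberg adjustment they gave 0, 3, 3, 0, 2 and 1 member genes and 0, 1132, 902, 629, 402 and 1110 probe sets. With only the groups compared in the fit, adult against P10 cornea gave 0 member genes and 194 probe sets, and P10 cornea against tendon 5 and 3832. Quantile normalization left 2 member genes for lens against tendon.
The labels number replicates but do not say that the numbers pair samples. With the replicate number as a block the 6 comparisons gave 0, 6, 6, 4, 4 and 4 member genes and 381, 4291, 3071, 4380, 2474 and 4233 probe sets. Igfbp7 then missed the threshold between the ages (0.0567).
Of the probe sets called between adult and P10 cornea 15.3% were higher in the adult, and 26.7% with quantile or trimmed mean scaling, which moved the median over all probe sets, in log2, from -0.13 to 0.02 and 0.00. The cause of these changes was not tested. Counts of called pathway genes ranged from 2 to 5, 4 to 12, 4 to 11, 4 to 13, 3 to 11 and 3 to 10 over the alternatives. Background correction and a block for slide or scan date were not run, as no scanner files were used.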
